A study of Mus musculus with 12 samples.

Results

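Transcripts of integrins and of the proteins that join them to actin were followed in NIH3T3 cells, an established mouse fibroblast line. The list held 44 genes, chosen by symbol. Of these, 41 were measured, 16 of them integrin subunits, among 18193 genes in all. Each gene was read from the probe set with the highest mean log2 intensity over 12 arrays, out of the probe sets annotated with 1 symbol. Itga11, Ptk2 and Nedd9 were not analysed here.

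The cells had been infected with virus carrying Tead2-VP16, Yap, Tead2-EnR or a control vector. Tead2 is a DNA-binding transcription factor. Tead2-VP16 joins it to a viral activation domain, Tead2-EnR joins it to the Engrailed repression domain, and Yap is a transcriptional coactivator with which Tead factors pair. There were 6 groups of 2 arrays. Tead2-VP16 cells were taken at complete confluency (called confluent here) and, while proliferating, at a density slightly above that at which normal cells are confluent (high density). Yap cells were taken proliferating at high density, and control cells were taken confluent. Tead2-EnR cells and a second set of control cells were taken at 30% confluency (low density). All groups shared the parental line, and no control was taken at the high density of the proliferating cells. Whether infected cells were pools or clones, and which promoter drove the constructs, are not given in the sources used here. Nor do the labels state that a group's 2 arrays were separate cultures, so the p-values speak of array spread alone, part or all of which may be technical.

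Integrins are heterodimers of an alpha and a beta chain that span the plasma membrane and bind matrix proteins such as collagen, laminin and fibronectin. Inside the cell, talin and kindlin bind the beta tail and switch the receptor on, and a layer of adaptors (paxillin, the complex of ILK with parvin and PINCH, vinculin, zyxin and alpha-actinin) links it to actin bundles and to kinases such as Src. In fibroblasts these assemblies are the focal adhesions, which carry tension between matrix and cytoskeleton. Yap is known to respond to cell density and to such tension.

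Levels are log2 intensities, and every change is a log2 difference, the group named first minus the other, unless a fold is given. Levels of different genes come from different probes, so a percentile among genes is only a rough guide to how bright a signal was. Fibroblast markers (Vim, Col1a1, Col1a2, Fn1, Thy1, Pdgfrb, S100a4 and Lgals1) lay between the 89.3 and 100 percentiles of all genes. The 22 markers of epithelial, leukocyte, endothelial, platelet and muscle cells lay between the 6.99 and 67.2 percentiles. Ptprc averaged 3.36 and Pecam1 4.34. Brighter ones were the platelet marker Itga2b at 8.34, the epithelial marker Epcam at 7.82 and the muscle marker Des at 7.32. As a sign of RNA quality, the control probe sets of the transferrin receptor at its 3′ end exceeded those at its 5′ end by 1.54 and 1.46 in confluent Tead2-VP16, 1.35 and 1.26 in Yap, 1.23 on each array in high-density Tead2-VP16, 1.17 and 1.44 in confluent control, 1.13 and 1.10 in Tead2-EnR and 1.02 and 0.94 in low-density control cells. This excess was higher in the denser groups. For beta-actin it averaged 0.08 in low-density control, 0.23 in confluent control and 0.27 in confluent Tead2-VP16 cells. For Gapdh it averaged -0.23, -0.28 and -0.26 in those groups. The part of such differences in the results was not tested. The Yap1 probe set read 9.62 and 9.69 in Yap cells, against 9.95 and 9.98 in confluent control cells. The Tead2 probe set averaged 9.32 in high-density and 9.76 in confluent Tead2-VP16 cells, against 9.88 in confluent control. It averaged 9.83 in Tead2-EnR cells, against 9.62 in low-density control. Where the probes of these 2 genes lie relative to the introduced constructs is not given in the sources used here. Their values thus do not check the labels.

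Among the measured members, 36 passed the test in at least 1 of 9 comparisons (adjusted p below 0.05 by limma, over all genes). Single comparisons called 2.02% to 48.9% of all genes, and the share of all genes passing in at least 1 of the 9 was not computed. Itga2, Itga4, Itga5, Itga8 and Itgb3 passed in none on the probe sets chosen. Of 155 uncalled values from genes with several probe sets, 40, from 18 genes, had another probe set that passed. The second Itgb3 probe set passed in 6 comparisons, with 0.82 for high-density Tead2-VP16 and 0.52 for Yap against confluent control, and further probe sets of Itga4 and Itga5 passed in 3 comparisons each. The group means of 10 members spread over at least 1 log2 unit: Itgb8 by 3.01, Tns1 by 2.10, Itga1 by 1.60, Vcl by 1.46, Enah by 1.34, Parvb by 1.23, Sdc4 by 1.17, Pxn by 1.13, Lims2 by 1.10 and Actn1 by 1.07. For 16 members, 11 of them integrin subunits, the spread was under 0.5. Such spreads were not counted over all genes. High-density Tead2-VP16 was the highest group for 14 members and the lowest for none, while low-density control was the lowest for 14 and the highest for 4. These ranks were not counted over all genes. The members highest in high-density Tead2-VP16 include Itga2, Itga4, Itga5 and Itgb3, which passed in no comparison on the chosen probe sets. Group means of Itga2 spread by only 0.13.

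**Figure D1:**
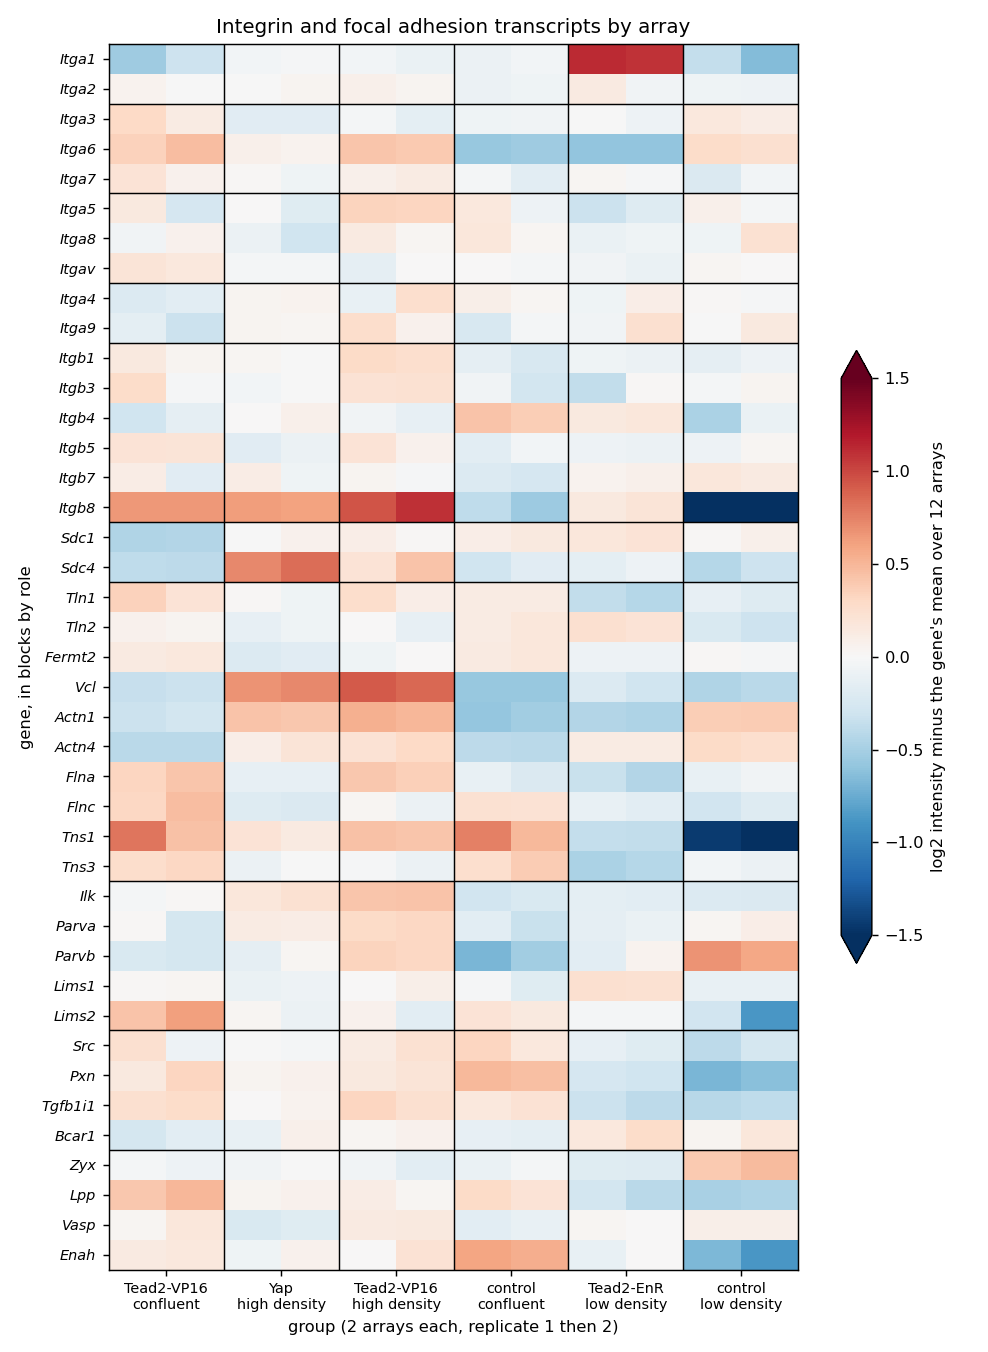
Log2 intensity of the 41 measured genes (down the page, in blocks by role) on each of the 12 arrays (across, 2 per group), as the difference from the gene's mean over all arrays. Itgb8 and Tns1 are lowest in low-density control cells, Vcl is highest in high-density Tead2-VP16 and Yap cells, and Itga1 stands out in Tead2-EnR cells.

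What differed with density, without a fusion or Yap, was asked by setting confluent control cells against low-density control cells. The actin-linking adaptors split: tensin 1, the Ena/VASP protein Mena and paxillin were higher at confluency, and alpha-actinin 1, alpha-actinin 4, zyxin and beta-parvin were lower. Of the 41 members, 15 were higher, 10 lower and 16 not called. That is 61% called, beside 48.9% of all genes (26.1% higher and 22.8% lower). The median change was 0.02 for the members and -0.01 for all genes. These are whole cultures, so fewer cells with a transcript and less of it per cell cannot be told apart. At least 2-fold changes were seen for 4 members higher and 1 lower, and 11% of all genes passed both the test and that fold.

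Tns1, tensin 1, which ties integrin tails to actin, read 9.85 and 9.58 in confluent control cells, against 7.66 and 7.57 in low-density control cells. The groups were far apart, and the rise was 4.29-fold (2.10 ± 0.12, SE, adjusted p = 1.9e-07 by limma). Enah, the Mena protein that promotes actin filament growth, read 10.74 and 10.70 in confluent cells, against 9.49 and 9.28 at low density, a 2.53-fold rise. Of its 5 further probe sets, 3 rose too and 2 were not called. Pxn, paxillin, a docking scaffold of focal adhesions, read 9.93 and 9.90 at confluency, against 8.77 and 8.82 at low density, which was 2.18-fold higher (adjusted p = 2.3e-07 by limma).

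Further members of the adaptor layer rose by less. Lpp, a zyxin relative, rose by 0.72, Tgfb1i1, the paxillin relative Hic-5, by 0.58, the kinase gene Src by 0.57, Flnc, a filamin that crosslinks actin, by 0.47, Tln2 by 0.42 and Tns3 by 0.38. The second probe set of Src was at 0.04 and that of Tns3 at 0.15, neither of them called. Lims2, which encodes a PINCH adaptor, rose by 0.76, with low-density arrays at 7.04 and 6.46.

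The falls at confluency were in other actin linkers. Parvb, beta-parvin, which joins ILK to actin, read 7.09 and 7.26 in confluent cells, against 8.45 and 8.36 at low density, a 2.35-fold fall (-1.23 ± 0.09, SE, adjusted p = 1.2e-06 by limma). Actn1, alpha-actinin 1, which crosslinks actin filaments, read 10.52 and 10.58 in confluent cells, against 11.47 and 11.49 at low density, and fell by 0.93. Its relative Actn4 read 11.33 and 11.31, against 11.999 and 11.970, and fell by 0.67. No array of one density overlapped those of the other for these genes, as was so for 33 of the 41 members. That share was not counted over all genes. Zyx, zyxin, a protein of mature and tensed adhesions, fell by 0.50 on its chosen probe set and stood at -0.15, not called, on its other one. Vcl, vinculin, read 11.27 on each confluent array, against 11.39 and 11.43 at low density, a difference of -0.14 that was not called, while its second probe set fell by 0.50 (adjusted p = 0.00098 by limma over probe sets). Lims1 was at 0.01 and not called, but 3 of its 4 other probe sets fell, by 0.40 to 0.57.

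Of the 16 integrin subunits, 3 were higher, 3 lower and 10 not called. Itgb8, which pairs with the alpha-v chain and acts in the activation of latent TGF-beta, read 6.64 and 6.48 in confluent control, against 5.12 and 4.95 at low density, a 2.88-fold rise (adjusted p = 1.2e-07 by limma). Only 1 probe set was at hand for Itgb8, and all 4 of these readings lay below the median over all genes, 6.87. Itgb4, the partner of alpha 6 in laminin binding, rose by 0.69, and Itga1, a collagen receptor chain, by 0.44 (0.21 and not called on its second probe set). Itga6, a laminin receptor chain, read 10.19 and 10.22 in confluent cells, against 11.04 and 10.996 at low density, and fell by 0.81. Itgb7 fell by 0.38 and Itga3 by 0.19. Itgb1, the common partner of most alpha chains, differed by -0.08 and Itgav by -0.03, neither called. Among their other probe sets, 2 of 4 for Itgav fell, by 0.46 and 0.34, and 1 of 5 for Itgb1, a dim one, fell by 0.66. The calls of Bcar1, Fermt2, Itga3, Parva, Tln1 and Vasp were lost without 1 or another of the 4 arrays, and a second Parva probe set rose by 0.19 while the chosen one fell by 0.31.

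**Figure D2:**
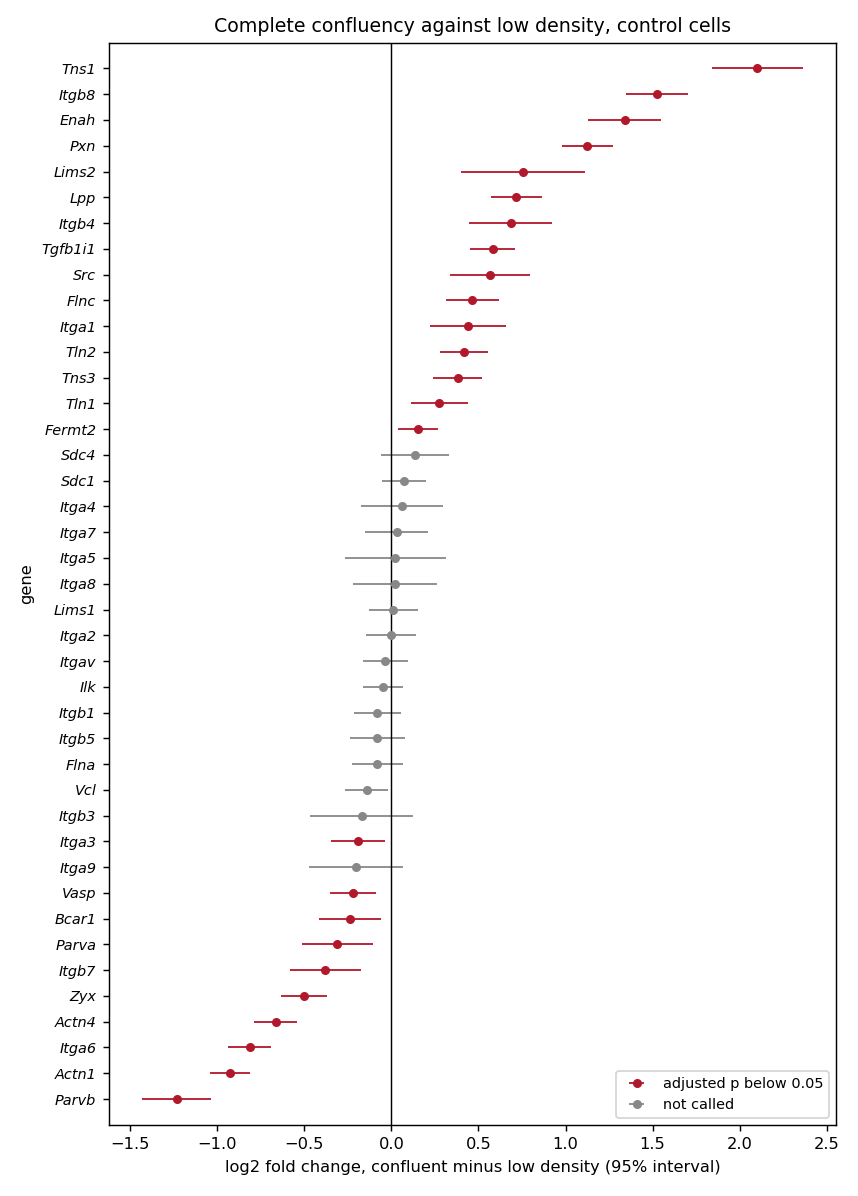
Log2 fold change of each gene (down the page) between confluent and low-density control cells, with its 95% interval from limma, 2 arrays per group. Red points passed the test at an adjusted p below 0.05. Tns1, Itgb8, Enah and Pxn lie above 1, and Parvb lies below -1.

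What the repressor fusion changed was asked at low density, with Tead2-EnR cells against control cells. Here 11 members were higher, 7 lower and 23 not called, which is 43.9% called beside 38.4% of all genes (20.3% higher and 18.1% lower). The rises were led by Itgb8, Itga1, Tns1 and Enah, and the falls by Itga6, Actn1, Parvb and Zyx. The median change was 0.03 for the members and -0.01 for all genes.

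Itgb8 read 7.18 and 7.22 in Tead2-EnR cells, against 5.12 and 4.95 in control cells, and was 4.48-fold higher (adjusted p = 6.5e-08 by limma). Itga1 read 7.72 and 7.69 with Tead2-EnR, against 6.24 and 5.96 in control, a 3.04-fold rise. No other array of the series read Itga1 above 6.58, and its second probe set rose by 0.67. Tns1 read 8.74 and 8.72 with Tead2-EnR, against 7.66 and 7.57 in control, and rose 2.17-fold. Enah read 10.04 and 10.16, against 9.49 and 9.28 in control, and rose by 0.72. Smaller rises were those of Lims2 (0.55), Tln2, talin 2 (0.49), Itgb4 (0.45), Pxn (0.38) and Lims1 (0.35).

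Itga6 read 10.17 on each Tead2-EnR array, against 11.04 and 10.996 in control, and fell by 0.85 (adjusted p = 1.9e-06 by limma). Actn1 read 10.66 and 10.63 with Tead2-EnR, against 11.47 and 11.49 in control, and fell by 0.83. For each gene the Tead2-EnR arrays lay clear of the control arrays, as was so for 34 of the 41 members. That share was not counted over all genes. Parvb read 7.62 and 7.83, against 8.45 and 8.36, and fell by 0.68. Zyx read 10.82 on each Tead2-EnR array, against 11.41 and 11.48 in control, and fell by 0.63, with its second probe set at -0.31 and not called. Smaller falls were those of Tns3 (-0.39), Flna, filamin A, an actin crosslinker that binds beta tails (-0.30), and Tln1, talin 1 (-0.25).

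Some members that fell with density in control cells did not pass the test here. Actn4 was at -0.15, Itgb7 at -0.09 and Vasp at -0.07. The density comparison and the Tead2-EnR comparison share the low-density control arrays, so their values are not independent. The calls of Lims2, Sdc4, Tln1 and Vcl (0.18) were lost without 1 or another array. Probe sets of Itgav, Itga3 and Lpp other than the chosen, uncalled ones passed, with 2 lower for Itgav (-0.38 and -0.35), 2 lower for Itga3 (-0.40 and -0.52) and 3 higher for Lpp. Other probe sets of Lims1 and Tns3 did not follow the chosen ones: 1 of the 4 for Lims1 fell by 0.48, and that of Tns3 was at 0.22 and not called.

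What the activator fusion changed was asked at complete confluency, with Tead2-VP16 cells against control cells. Of the 41 members, 11 were higher, 3 lower and 27 not called, which is 34.1% called beside 9.98% of all genes (5.06% higher and 4.92% lower). The median change was 0.12 for the members and -0.01 for all genes. Itgb8, Itga6 and Flna rose the most, and Itgb4, Sdc1 and Enah fell. Calls fell to 5 without array 1 of confluent control, 8 without array 2, 7 without array 1 of confluent Tead2-VP16 and 9 without array 2. They fell to 6 in a fit of these 4 arrays alone, where 4.72% of all genes were called. With quantile normalization repeated, 8 were higher and 4 lower, beside 9.58% of all genes called.

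Itgb8 read 7.68 and 7.69 in confluent Tead2-VP16 cells, against 6.64 and 6.48 in confluent control, a 2.18-fold rise (adjusted p = 4.0e-05 by limma). Itga6 read 11.11 and 11.22 with Tead2-VP16, against 10.19 and 10.22 in control, and rose 1.95-fold. Flna read 11.14 and 11.25, against 10.72 and 10.61, and rose by 0.53. Sdc1, a heparan sulfate proteoglycan that acts as a matrix co-receptor, read 9.98 and 9.99 with Tead2-VP16, against 10.54 and 10.58 in control, and fell by 0.57. These 4 genes kept their calls without each array in turn.

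The other called members lost the call without at least 1 array. Itgb4 read 6.86 and 7.02 with Tead2-VP16, against 7.57 and 7.52 in control (-0.61). Enah read 10.29 and 10.32, against 10.74 and 10.70 (-0.42), and Parvb read 7.54 and 7.51, against 7.09 and 7.26 (0.35). For these 3 genes the arrays of the groups lay apart, as they did for 32 of the 41 members. That share was not counted over all genes. The rest were Itgb5 (0.30), Itgb1 (0.28), Itga3 (0.27), Ilk (0.26), Actn1 (0.25), Vcl (0.24) and Vasp (0.23). The second Parvb probe set was at -0.02 and not called.

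The comparisons of the repressor at low density and of the activator at confluency share no arrays. Of 18 members called with Tead2-EnR and 14 called with Tead2-VP16, 8 were called in both, which is 44.4% of the Tead2-EnR list and 57.1% of the Tead2-VP16 list. Over all genes, 1263 were called in both, 18.1% of the Tead2-EnR calls and 69.6% of the Tead2-VP16 calls. In 6 of the 8 members (75%) the directions were opposite, as they were in 68.4% of the 1263 genes. Itga6 was at 0.96 with Tead2-VP16 and -0.85 with Tead2-EnR, Flna at 0.53 with Tead2-VP16 and -0.30 with Tead2-EnR, and Parvb at 0.35 with Tead2-VP16 and -0.68 with Tead2-EnR. Actn1 was at 0.25 with Tead2-VP16 and -0.83 with Tead2-EnR. The signs were turned for Enah (-0.42 with Tead2-VP16, 0.72 with Tead2-EnR) and Itgb4 (-0.61 with Tead2-VP16, 0.45 with Tead2-EnR). Itgb8 rose with each fusion, by 1.12 with Tead2-VP16 and 2.16 with Tead2-EnR, and Vcl by 0.24 with Tead2-VP16 and 0.18 with Tead2-EnR. Density differed between these comparisons, so the fusions were not set against each other directly.

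**Figure D3:**
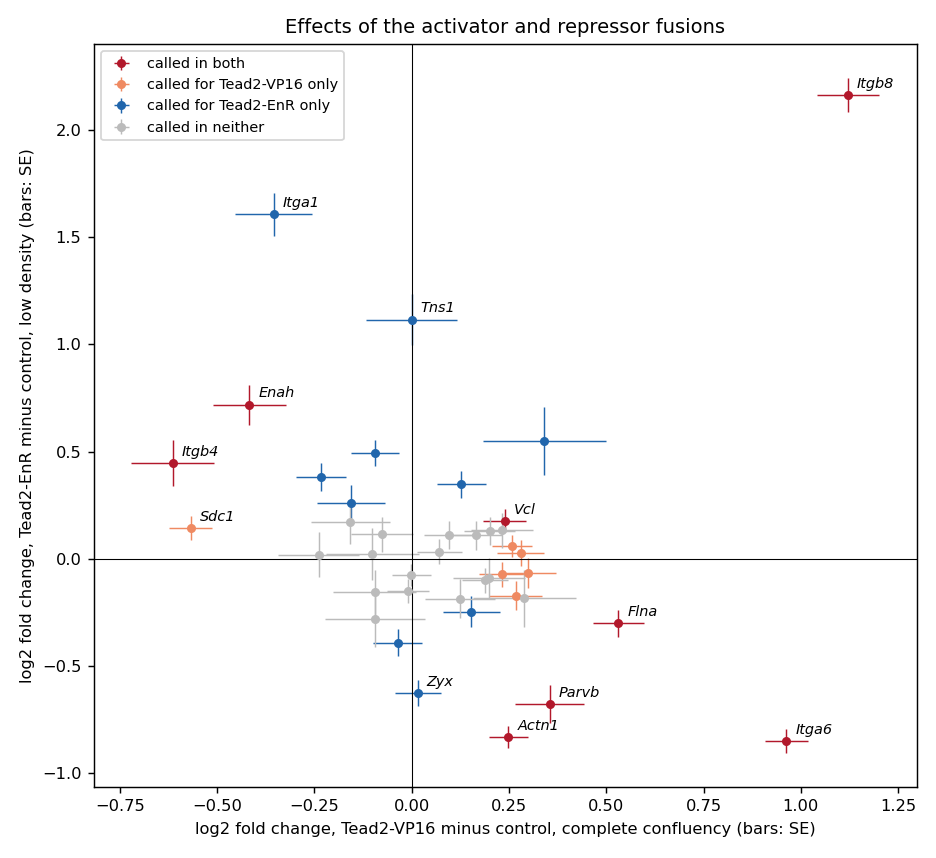
Log2 fold change of the 41 genes with Tead2-VP16 against control at complete confluency (across) and with Tead2-EnR against control at low density (up), bars showing the SE of the fit. Itga6, Flna, Parvb and Actn1 lie lower right, Enah and Itgb4 upper left, and Itgb8 upper right.

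For Yap, the proliferating cells at high density were compared with confluent control cells, the control nearest in density. Yap and the difference in density and growth cannot be told apart here. The actin-linking genes split: vinculin, both alpha-actinins, ILK and its parvins rose, with syndecan 4, Itgb8 and Itga6, while tensins 1 and 3, filamin C, kindlin 2, talin 2, paxillin and Mena fell. Of the 41 members, 10 were higher, 8 lower and 23 not called, which is 43.9% called beside 26.1% of all genes (11.7% higher and 14.5% lower). High-density Tead2-VP16 cells, set against the same control arrays, had 13 members higher, 7 lower and 21 not called (48.8%, beside 26.9% of all genes, 13.2% higher and 13.7% lower). The medians were -0.01 with Yap and 0.13 with Tead2-VP16, beside -0.003 and 0.01 over all genes. Since these comparisons share their control arrays, their values are given side by side and not as independent evidence.

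Vinculin binds talin and actin and strengthens adhesions under load. Vcl read 12.52 and 12.56 in Yap cells and 12.76 and 12.70 in high-density Tead2-VP16 cells, against 11.27 on each confluent control array. The rises were 2.41-fold with Yap (adjusted p = 4.6e-07 by limma) and 2.76-fold with Tead2-VP16 (2.6e-07). It read 11.49 and 11.52 in confluent Tead2-VP16, 11.63 and 11.54 in Tead2-EnR and 11.39 and 11.43 in low-density control cells. The proliferating high-density groups thus stood above the other 4 groups, and no arrays overlapped between them.

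Actn1 read 11.53 and 11.51 in Yap cells and 11.64 and 11.60 in high-density Tead2-VP16 cells, against 10.52 and 10.58 in confluent control. The rises were 1.96-fold and 2.09-fold. Actn4 read 11.81 and 11.91 with Yap and 11.93 and 12.02 with Tead2-VP16, against 11.33 and 11.31 in confluent control, and rose by 0.54 and 0.66. Against low-density control, Actn1 differed by 0.04 with Yap (95% interval -0.08 to 0.15) and 0.14 with Tead2-VP16, and Actn4 by -0.13 with Yap (-0.25 to -0.002) and -0.01 with Tead2-VP16, none of them called. The other 2 Actn1 probe sets were lower with Yap than at low density, by 0.65 and 0.37, and were not called with Tead2-VP16.

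Sdc4, syndecan 4, a co-receptor for fibronectin that sits in focal adhesions, read 9.77 and 9.88 in Yap cells and 9.24 and 9.47 in high-density Tead2-VP16 cells, against 8.74 and 8.87 in confluent control. It rose 2.03-fold with Yap and by 0.55 with Tead2-VP16. Its second probe set was not called for Tead2-VP16, at 0.69. Yap cells were the highest group for Sdc4, and for no further member.

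Of the 5 measured genes of the ILK complex, 3 rose in both. Ilk, the pseudokinase at its centre, read 11.35 and 11.42 with Yap and 11.60 and 11.62 with Tead2-VP16, against 10.90 and 10.95 in confluent control, rises of 0.46 and 0.68. Parvb rose by 0.55 and 0.92 on its chosen probe set, and its second one was at 0.05 and not called with Yap. Parva, alpha-parvin, rose by 0.36 and 0.54. Lims1 (0.02 and 0.15) and Lims2 (-0.21 and -0.22) did not pass the test with either. Of the 4 other Lims1 probe sets, 2 rose with Yap, by 0.44 and 0.49, and none passed with Tead2-VP16.

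Of the integrin subunits, Itgb8 read 7.66 and 7.63 with Yap and 7.97 and 8.13 with Tead2-VP16, against 6.64 and 6.48 in confluent control, 2.11-fold and 2.81-fold higher. Itga6 read 10.83 and 10.81 with Yap and 11.18 and 11.14 with Tead2-VP16, against 10.19 and 10.22 in confluent control, and rose by 0.62 and 0.96. Yap cells thus lay between Tead2-VP16 and control. Itgb1 rose by 0.20 and 0.45. Itgb4 fell by 0.35 with Yap and 0.49 with Tead2-VP16. With Tead2-VP16, Flna (0.55), Vasp (0.28) and Itgb5 (0.23) rose as well, while with Yap they stood at 0.04, -0.07 and -0.03 and were not called.

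The falls were in several genes that had risen with density in control cells. Both sets of values use the confluent control arrays. Enah read 10.09 and 10.22 with Yap and 10.16 and 10.38 with Tead2-VP16, against 10.74 and 10.70 in confluent control, and fell by 0.57 and 0.45. Pxn read 9.49 and 9.52 with Yap and 9.59 and 9.65 with Tead2-VP16, against 9.93 and 9.90, and fell by 0.41 and 0.30. Each of these arrays lay below both control arrays. In each comparison the arrays did not overlap for 32 of the 41 members, a share not counted over all genes. The other 2 Pxn probe sets were not called with Tead2-VP16 (-0.14 and -0.07). With Yap they stood at -0.29 each, and 1 of them was called. Smaller or less even falls were those of Tns3, by 0.37 with each, Flnc by 0.43 and 0.25, Fermt2 (kindlin 2, which activates integrins with talin) by 0.34 and 0.18, and Tln2 by 0.24 and 0.20. Tns1 fell by 0.45 with Yap and stood at -0.20 with Tead2-VP16, not called, but its other 2 probe sets fell with Tead2-VP16 too, by 0.90 and 0.58. The second Tns3 probe set was at -0.02 and -0.08, not called. Without 1 or another array, calls were lost for Itgb1, Itgb4, Parva, Tln2 and Tns1 with Yap, and for Fermt2, Flnc, Itgb5, Pxn and Tln2 with Tead2-VP16.

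**Figure D4:**
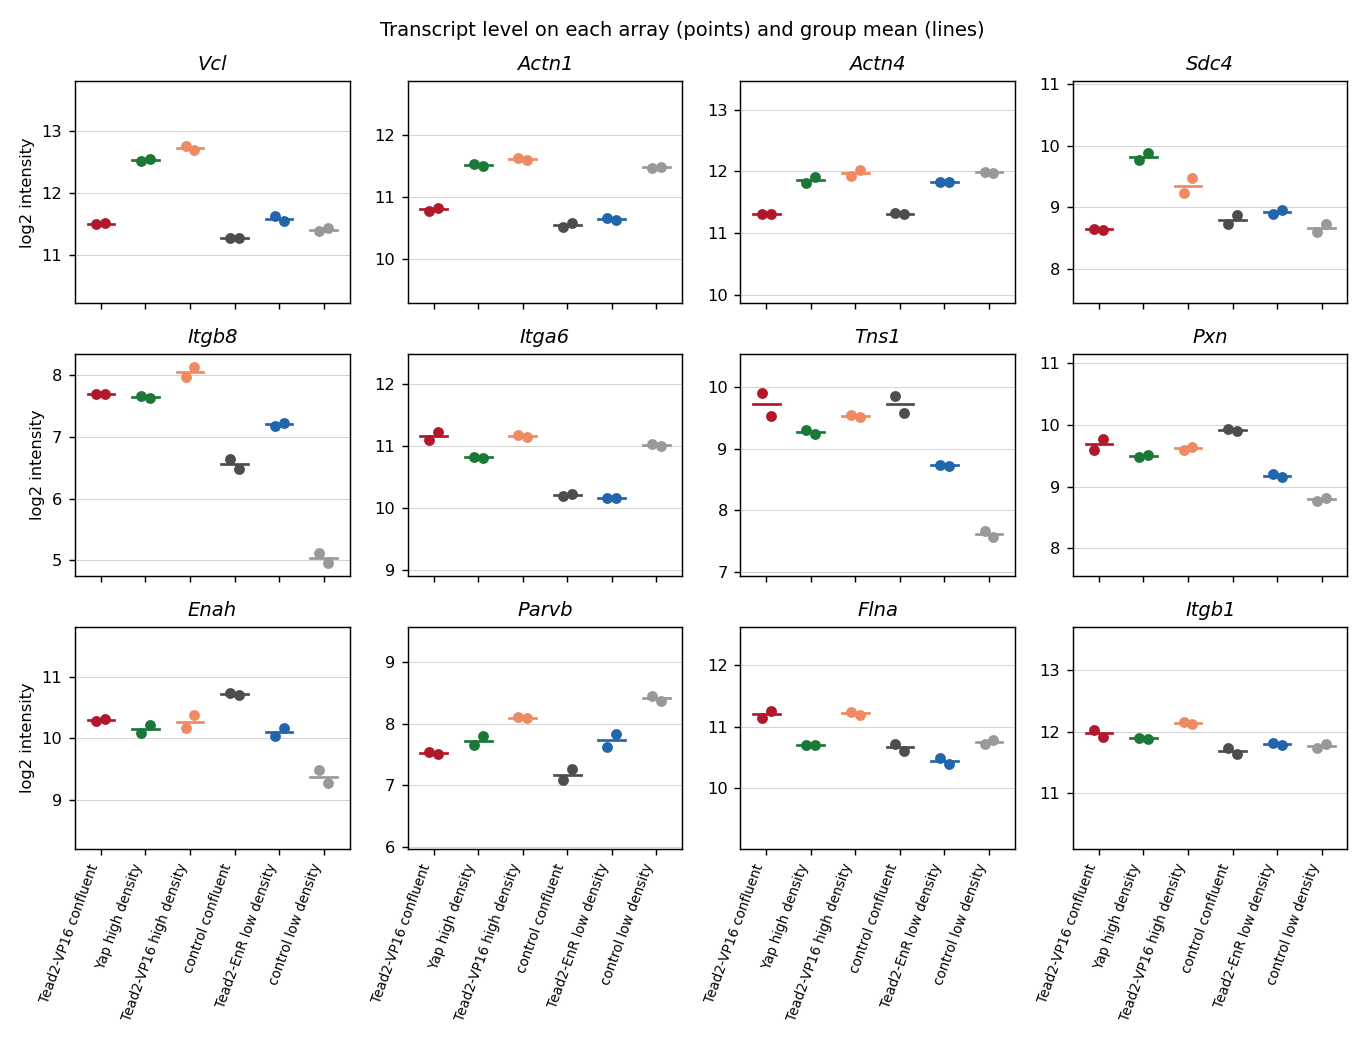
Log2 intensity of 12 genes on each array (points, 2 per group) with the group mean (line), each panel spanning the same height. Vcl and Sdc4 are highest in the high-density Yap and Tead2-VP16 groups, Actn1 and Actn4 are low in the confluent groups (Actn1 in Tead2-EnR cells too), and Itgb8 and Tns1 are lowest in low-density control.

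The promoters of some of these genes are shown because Tead factors bind the letters GGAATG, and SRF, a factor of actin and adhesion genes, binds the CArG box. RefSeq promoter sequences (GRCm38.p6) were at hand for 32 of the 41 members, as 39 windows of bases around the transcript start. GGAATG was found on either strand in those of Actn4, Flna, Flnc, Itgb1, Lpp and Vcl, 7 of the 39 windows, and in 14.7% of 32851 promoters of all genes. The CArG box was found in those of Vcl and Fermt2 and in 1.63% of all. The AP-1 letters TGANTCA were in those of Actn4, Itga3, Itga9 and Zyx and in 7.81% of all, and are not shown. Capitals below mark matches to either motif, CATTCC being GGAATG on the other strand. Each stretch is read 5′ to 3′ on the gene's strand, at chr14:20929148-20929297 (plus) for Vcl, chrX:74246655-74246700 (minus) for Flna, chr7:28962523-28962568 (minus) for Actn4, chr16:24721653-24721698 (plus) for Lpp and chr14:45530240-45530289 (minus) for Fermt2.
Vcl: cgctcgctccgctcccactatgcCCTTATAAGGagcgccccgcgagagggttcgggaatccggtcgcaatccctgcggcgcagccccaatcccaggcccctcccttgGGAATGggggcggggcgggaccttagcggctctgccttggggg
Flna: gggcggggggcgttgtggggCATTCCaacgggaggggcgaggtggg
Actn4: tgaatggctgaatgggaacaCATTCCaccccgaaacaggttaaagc
Lpp: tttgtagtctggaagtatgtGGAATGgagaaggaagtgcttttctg
Fermt2: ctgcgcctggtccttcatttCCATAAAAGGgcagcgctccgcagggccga
Vcl was the member whose window held both motifs, with the CArG box beginning at -227 and GGAATG at -143 from the start. A match is a run of letters and not a shown binding site. At confluency against low density in control cells, genes with GGAATG went different ways. Actn4 fell by 0.67, Lpp rose by 0.72 and Flnc by 0.47, and Vcl, Flna and Itgb1 were not called on their chosen probe sets. With Tead2-VP16 at confluency, Flna, Itgb1 and Vcl rose, and Actn4, Flnc and Lpp were not called. Against low-density control, high-density Tead2-VP16 cells had Vcl, Flna, Flnc, Itgb1 and Lpp higher, and Actn4 not called (-0.01). Against confluent control, Flnc was lower in those cells (-0.25). Whether the motifs bear on these changes was not tested. Fermt2, with a CArG box, fell with Yap, while Vcl rose.

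Within Tead2-VP16 cells, the step to complete confluency was set against proliferating cells at high density. Here 7 members were higher, 12 lower and 22 not called, which is 46.3% called beside 24.5% of all genes (12.1% higher and 12.4% lower). Vcl fell to 11.49 and 11.52 in confluent cells, against 12.76 and 12.70 at high density, a 2.34-fold difference (-1.22 ± 0.05, SE, adjusted p = 1.1e-06 by limma). Actn1 read 10.77 and 10.82 in confluent cells, against 11.64 and 11.60, and fell by 0.82, and Actn4 fell by 0.67. Sdc4 read 8.66 and 8.64, against 9.24 and 9.47, and fell by 0.71, with its second probe set at -0.66 and not called. Sdc1 fell by 0.51, Parvb by 0.57 and Ilk by 0.43.

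Itga6, in contrast, read 11.11 and 11.22 in confluent Tead2-VP16 cells and 11.18 and 11.14 at high density, a difference of 0.00 (95% interval -0.12 to 0.13). Flna differed by -0.02. Lims2 read 7.75 and 7.94 in confluent Tead2-VP16 cells, against 7.39 and 7.17 at high density, and rose by 0.56. Flnc read 9.31 and 9.46, against 9.03 and 8.91, and rose by 0.42. For each, the lower confluent array lay above the higher one at high density. The arrays did not overlap for 24 of the 41 members here, a share not counted over all genes. Lpp rose by 0.38 and Tns3 by 0.34, the second Tns3 probe set standing at 0.04, not called. Itgb8 fell by 0.37. Calls of Bcar1, Fermt2, Itga1, Itga3, Itga9, Itgav, Itgb8, Lims2 and Parva were lost without 1 or another array.

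Yap was set against Tead2-VP16 at high density, where the labelled density was the same. Few members differed: 1 was higher with Yap, 4 were lower and 36 were not called. That is 12.2% called, beside 2.02% of all genes (0.934% higher and 1.08% lower). Sdc4 was higher with Yap, by 0.47 (9.77 and 9.88 with Yap, against 9.24 and 9.47 with Tead2-VP16), and stood at 0.12, not called, on its second probe set. Flna read 10.70 and 10.71 with Yap, against 11.23 and 11.19 with Tead2-VP16, and was lower by 0.51 (-0.51 ± 0.06, SE, adjusted p = 0.0052 by limma). Vasp, which extends actin filaments, read 10.30 and 10.34 with Yap, against 10.66 and 10.67 with Tead2-VP16, and was lower by 0.35. Itgb8 (-0.41) and Itga6 (-0.34) were lower as well. The arrays did not overlap for these 5 genes, as they did not for 46.2% of all genes.

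For the uncalled members the differences ran between -0.42 (Itga5, 95% interval -0.71 to -0.13) and 0.13 (Itgb4). Vcl differed by -0.19 (95% interval -0.31 to -0.07, adjusted p = 0.128 by limma) and Actn1 by -0.10 (-0.21 to 0.02). The median over members was -0.13, beside -0.02 over all genes. The 5 calls did not stand without single arrays. Limma called 2 members without array 2 of Tead2-VP16 and 0 without its array 1 or without either Yap array. Members with an unadjusted p below 0.05 numbered 15 without array 1 of Tead2-VP16, 14 without array 1 of Yap and 13 without array 2 of Yap. Counts by unadjusted p were not made over all genes. With arrays centred on their medians, 1 member was higher and 7 lower, beside 2.67% of all genes called.

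**Figure D5:**
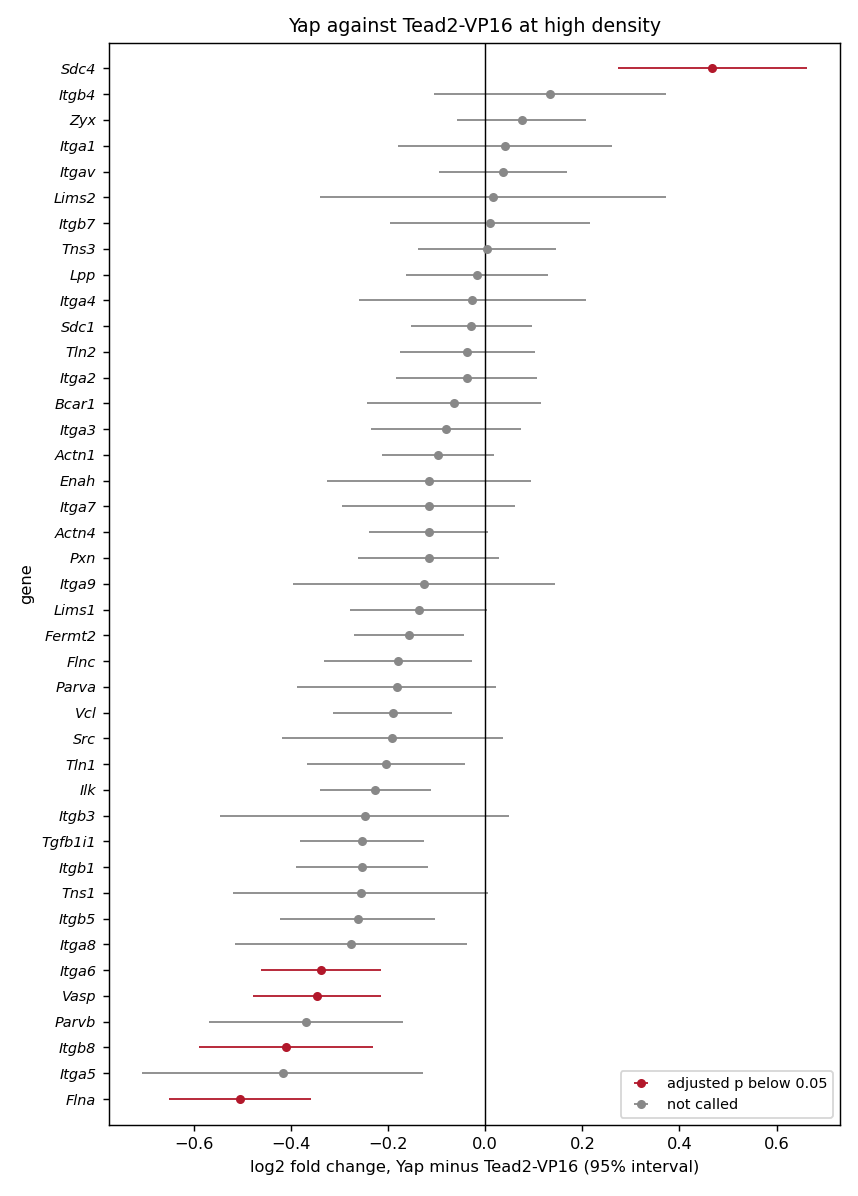
Log2 fold change of each gene (down the page) between Yap and Tead2-VP16 cells at high density, with its 95% interval from limma, 2 arrays per group. Sdc4 passed the test above 0, and Flna, Itgb8, Vasp and Itga6 passed below 0.

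The high-density groups were also set against low-density control, to place them between the 2 control densities. Yap cells had 14 members higher and 6 lower (48.8% called, beside 42.4% of all genes, 22.2% higher and 20.2% lower), and 11 higher and 8 lower with arrays centred on their medians. Tead2-VP16 cells had 18 higher and 3 lower (51.2%, beside 42.9% of all genes, 23.4% higher and 19.5% lower). Itgb8 was 6.08-fold higher with Yap and 8.08-fold higher with Tead2-VP16, the widest differences of any member here. It had 1 probe set, and its low-density control arrays read 5.12 and 4.95, below the median over all genes, 6.87. Tns1 was 3.14-fold and 3.75-fold higher, and Vcl 2.19-fold and 2.50-fold. Enah (0.77 and 0.89) and Pxn (0.71 and 0.83) were higher than at low density and, as given above, lower than in confluent control on their chosen probe sets. Zyx was lower in each, by 0.46 and 0.54, and low-density control was its highest group, at 11.41 and 11.48, though its second probe set was called in none of these comparisons. Sdc4 was higher by 1.15 and 0.69, but its second probe set was not called in either. Parvb was lower by 0.68 with Yap and 0.31 with Tead2-VP16. Without 1 or another array, calls were lost for Fermt2, Itga6, Itgb4, Lims2, Src and Tln2 with Yap, and for Flnc, Itga3, Itga7, Lims2, Parvb and Tln2 with Tead2-VP16.

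In the wider adhesion machinery, 55 of 59 further genes were measured. Of these, 17 were higher and 18 lower in confluent than in low-density control cells, led by Synm, a filament protein that binds adhesion proteins (2.35), Tns2 (1.20) and Cd47 (1.12) upward, and Plaur, the urokinase receptor (-1.34), Tes, a zyxin-binding LIM protein (-1.32), and Pdlim1 (-1.18) downward. That is 63.6% called, beside 48.9% of all genes. With Tead2-EnR, 14 were higher, with Csrp1 (1.31) and Synm (1.06), and 15 lower, with Apbb1ip, which recruits talin to integrins (-1.23), and Pdlim1 (-0.90), or 52.7% called beside 38.4% of all genes. With Tead2-VP16 at confluency, 11 were higher, with Ajuba, a LIM protein of adhesions and cell contacts (1.04), Cd151 (0.46) and Pdlim1 (0.43), and 3 lower, which were Itgae, Fyn and Evl (25.5% called, beside 9.98% of all genes).

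At high density against confluent control, 15 of the 55 were higher and 13 lower with Yap, and 19 higher and 10 lower with Tead2-VP16. These are 50.9% called with Yap, beside 26.1% of all genes, and 52.7% with Tead2-VP16, beside 26.9%. Csrp1 (0.95 and 1.12), Palld, the actin-bundling palladin (0.51 and 0.92), and Pdlim7 (0.52 and 0.91) rose in each. Within Tead2-VP16 cells, 11 were higher and 9 lower at confluency (36.4% called, beside 24.5% of all genes), with Csrp1 at -1.14 and Palld at -0.81. Between Yap and Tead2-VP16, Pdlim7 (-0.39) and Asap1 (-0.32) were lower with Yap and the other 53 were not called (3.64% called, beside 2.02% of all genes).

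Of 23 integrin ligands, 21 were measured. In confluent against low-density control cells, 13 were higher, with Postn, periostin (4.97), Tgfbi (2.35) and Edil3 (2.28), and 3 lower, which were Ccn2, Ccn1 and Ccn3 (76.2% called, beside 48.9% of all genes). With Tead2-EnR, 9 were higher, led by Thbs1 (2.89), and 6 lower (71.4%, beside 38.4%). With Tead2-VP16 at confluency, 5 were higher, led by Tnc (1.34), and 4 lower, led by Postn (-2.36), which is 42.9% beside 9.98%. At high density against confluent control, 4 were higher and 8 lower with Yap (57.1%, beside 26.1%), and 7 higher and 9 lower with Tead2-VP16 (76.2%, beside 26.9%). Ccn2, a secreted ligand of several integrins and a known Tead target, stood at -5.10 in confluent against low-density control. At the same labelled density, Ccn2 stood at -0.61 with Tead2-EnR and at 0.12, not called, with Tead2-VP16 at confluency. Its relative Ccn1 stood at -0.59 with Tead2-EnR and at 0.99 with Tead2-VP16 at confluency, each called. Ccn3 stood at -0.29 and 0.36 in these comparisons, neither called. Against confluent control, Ccn2 stood at 3.23 with Yap and 2.33 with high-density Tead2-VP16, where density and growth differed too. At high density it was higher by 0.90 with Yap than with Tead2-VP16.

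Members whose probe set averaged below the median of all probe sets used, 6.87, numbered 8, all of them integrin subunits, among them Itga8 (3.48) and Itga4 (3.76). No detection calls were at hand, so whether such genes were expressed could not be judged. The group means of Itgb1 spread by 0.45 and those of Itgav by 0.26. Itgb1 read 12.03 and 11.91 in confluent Tead2-VP16, 11.90 and 11.88 in Yap, 12.16 and 12.13 in high-density Tead2-VP16, 11.74 and 11.64 in confluent control, 11.81 and 11.79 in Tead2-EnR and 11.74 and 11.80 in low-density control cells. Itgav read between 11.16 and 11.49 on all 12 arrays, with the confluent Tead2-VP16 arrays the highest on this probe set. Sdc1 read between 10.43 and 10.64 in 5 groups, with confluent Tead2-VP16 apart at 9.98 and 9.99.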

How the data were processed

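Expression was measured on 12 Affymetrix arrays in 6 groups of 2. The deposited intensity values are probe set summaries made by RMA, per the submitters' processing notes (no version given). They ran from 3.77 to 25980, a linear scale, so log2 was taken first. Of 45101 probe sets, 34945 had 1 symbol in the platform annotation, 932 several, 9160 none, and 64 were controls. A single limma fit (3.58.1, R 4.3.3) held every array, with a coefficient for each group and 6 residual plus 3.45 prior degrees of freedom. Its tests were two-sided, with Benjamini-Hochberg adjustment over 18193 genes within each of 9 comparisons and no filter on level. The fit was checked on simulated data. The number of arrays limits the precision. Figures used matplotlib 3.10.9 in Python 3.11.15.

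The members, lists and tests were chosen with earlier results of these data known. All members could be named. Values by array were meant for the called members with the largest changes (up to 4 each way per comparison) and the brightest member of each role, and are left out where given elsewhere or small. From the lists of other genes, up to 3 each way were named, and a few were followed into other comparisons after their values were seen. Alternatives were averaging all probe sets per gene, every probe set tested, genes above the median level, a replicate block, a trended robust prior, quantile normalization repeated, median centring, only the 4 arrays compared, and each array left out. Replicate numbers did not pair samples: deviations of same-numbered arrays correlated with r between -0.0612 and 0.101 over 15 pairs of groups.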

Additional observations from a re-analysis of the deposited data

How the results depend on the processing

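No called member changed direction under any alternative run, and 1664 of 1912 recomputed values stayed past the threshold. Several alternatives leave each log2 change as it was, so no direction could turn there. These were every probe set tested, genes above the median level, the replicate block, the trended robust prior and the 4 arrays alone. Of 160 called values, 97 did so under every alternative that tested them. Confluent Tead2-VP16 against confluent control gave 14 called members, 6 in a fit of its 4 arrays alone and 5 to 9 with an array left out. Yap against Tead2-VP16 at high density gave 5 called members, 8 with the mean of probe sets, 13 among genes above the median level, 13 with the trended robust prior, 8 with arrays centred on their medians, 1 in a fit of the 4 arrays alone, and 0 to 2 with an array left out. The cause was not tested, beyond the fewer arrays of those last settings. For Yap against Tead2-VP16, the share of all genes called was 2.02% in the main fit and 2.34% with the mean of probe sets. It was 10.8% among genes above the median level, where 33 members were tested, and 5.82% with the trended robust prior. It was 2.67% with median centring and 0.429% in the fit of 4 arrays. With an array left out, the counts ran from 20 to 23 for confluent against low-density control (25 with all arrays), 15 to 17 for Tead2-EnR (18), 13 to 16 for Yap and 17 to 18 for high-density Tead2-VP16 against confluent control (18 and 20), 13 to 15 for Tead2-VP16 cells between densities (19), and 15 to 18 for Yap and 17 to 19 for Tead2-VP16 against low-density control (20 and 21). Over all genes, 68.6% of those called for confluent Tead2-VP16 were higher after median centring, against 50.7% without it. For high-density Yap cells against Tead2-VP16 cells this share was 31.3% after centring, against 46.3% without it. With the replicate block, which the data do not show to pair the arrays, the counts were 25, 18, 14, 18, 20, 4, 20, 19 and 20, against 25, 18, 14, 18, 20, 5, 19, 20 and 21 without it, for the density step in control, Tead2-EnR, confluent Tead2-VP16, Yap and high-density Tead2-VP16 against confluent control, Yap against Tead2-VP16, Tead2-VP16 between densities, and Yap and Tead2-VP16 against low-density control. The block ended the calls of Itgb8 between Yap and Tead2-VP16, Tln2 for Yap and Itga7 for Tead2-VP16 against low-density control. Of 109 called values from genes with several probe sets, 67 had another probe set called the same way and 2 had one called the opposite way. The number of arrays, and the lack of detection calls, limit what can be said of dim genes.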
